A study of Mus musculus with 20 samples.

Results

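A set of 8 genes of hepatic sugar handling was followed in the livers of obese mice: the glucose transporter gene Slc2a2, the regulatory gene Gckr, the glycolytic genes Pfkl, Pfkfb1 and Pklr, the fructokinase gene Khk, the pentose phosphate gene G6pdx and Mlxipl, which encodes the transcription factor ChREBP. They were taken by symbol from each of the 20 deposited libraries, and these 8 genes were among 22298 listed. All of the 8 passed the filter on low counts, as did 12342 genes in total. All mice, controls included, were males of the Lepr db/db strain, in which a faulty leptin receptor leads to obesity and diabetes. Every mouse received an AAV8 vector by tail vein at 5 weeks of age and was then gavaged once daily for 4 weeks. The Vec group (5 mice, labelled control) received a non-targeting shRNA vector and vehicle, and the Vec+BBR group (5 mice, labelled benzbromarone) received the same vector and the uricosuric drug benzbromarone (BBR) at 25 mg per kg. The shRNA group (5 mice, labelled PPAR knockdown) received a vector with several shRNAs against PPARγ and vehicle, and the shRNA+BBR group (5 mice, labelled PPAR knockdown + benzbromarone) received that vector and BBR at the same dose. Livers were taken after a 6 h fast. There was no lean group and no group without a vector, so effects of obesity or of the vector itself were not measured.

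Glucose and fructose enter the hepatocyte through GLUT2, the product of Slc2a2. The protein encoded by Gckr restrains the phosphorylation of glucose when glucose is scarce. Fructose is phosphorylated by ketohexokinase (Khk) and joins the pathway below phosphofructokinase, the enzyme whose liver subunit is Pfkl and whose activator is set by the bifunctional enzyme Pfkfb1. Liver pyruvate kinase (Pklr) makes pyruvate at the end of glycolysis, and glucose-6-phosphate dehydrogenase (G6pdx) opens the pentose phosphate pathway, a source of NADPH. ChREBP binds DNA together with its partner Mlx when sugar phosphates accumulate, and Pklr, Khk and G6pc are among its known targets.

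Binding sites of ChREBP with Mlx consist of a pair of E boxes, and the promoters were searched for this arrangement because the genes include both the factor and known targets. The windows run from 250 bases before to 50 bases after each RefSeq start (GRCm38.p6), and all 8 genes were found in that table, with 13 windows in all. Searched were CACGTG, a full E box, and a paired motif made of CANGNG, 5 bases of any kind and CNCNTG. Both read the same on either strand, and no match of one overlapped a match of the other. A match was found in 3 of the 13 windows, and 10 had none. CACGTG is held by 7.15% of all 32851 windows in the table and the paired motif by 0.557%. The stretches that hold the matches are printed with the match in capitals. Pklr is shown for the only paired match, Khk and Mlxipl for their single E boxes, and each is on the plus strand.
Pklr, chr3:89136373-89136571: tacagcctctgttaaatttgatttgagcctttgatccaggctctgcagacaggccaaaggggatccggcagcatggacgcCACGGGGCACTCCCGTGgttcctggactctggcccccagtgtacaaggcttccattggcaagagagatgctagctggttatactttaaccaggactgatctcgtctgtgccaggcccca
Khk, chr5:30921476-30921505: agcgttccccgtCACGTGacaccgttaatc
Mlxipl, chr5:135089640-135089889: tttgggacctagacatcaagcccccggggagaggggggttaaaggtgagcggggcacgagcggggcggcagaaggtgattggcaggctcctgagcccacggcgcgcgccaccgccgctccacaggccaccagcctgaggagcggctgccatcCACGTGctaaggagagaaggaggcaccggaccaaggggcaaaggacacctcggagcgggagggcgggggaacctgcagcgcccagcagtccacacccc
In Pklr the match starts 170 bases before the second RefSeq start of the gene, outside annotated exons but within the span of the gene. That of Khk starts 71 bases before the RefSeq start, where GENCODE M21 places the first exon (a 5′ UTR) of a longer transcript, and only 30 bases are shown there. The E box of Mlxipl lies 98 bases before the upstream of its RefSeq starts and outside annotated exons. These matches are descriptions of the letters. Binding was not measured in these mice.

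Scaled for length, the genes covered a wide range. Levels between genes were compared as FPKM (fragments scaled by the authors for gene length and library size). Over the 20 mice the mean was 554 ± 105 FPKM (SD, n = 20) for Khk, 202 ± 60.5 for Pklr, 117 ± 22.5 for Slc2a2 and 60.7 ± 6.07 for Gckr. It was 15.2 ± 2.50 FPKM for Pfkfb1, 13.9 ± 2.70 for Mlxipl, 11.8 ± 3.36 for Pfkl and 1.88 ± 0.439 for G6pdx. Khk stood above 98.9% of the tested genes by mean FPKM, and G6pdx above 34.7%. Khk was above Pklr, Slc2a2 above Gckr, Gckr above Pfkfb1 and Pfkl above G6pdx in 20 of 20 mice each. The neighbours Pklr and Slc2a2 overlapped in range, with Pklr higher in 16 of 20 mice. Pfkfb1, Mlxipl and Pfkl were not separated either, with Pfkfb1 above Mlxipl in 12 of 20 mice and Mlxipl above Pfkl in 12 of 20. Their order differed between groups: Pfkl was the lowest of these 3 in Vec and shRNA mice and Mlxipl the lowest in Vec+BBR and shRNA+BBR mice.

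**Figure D1:**
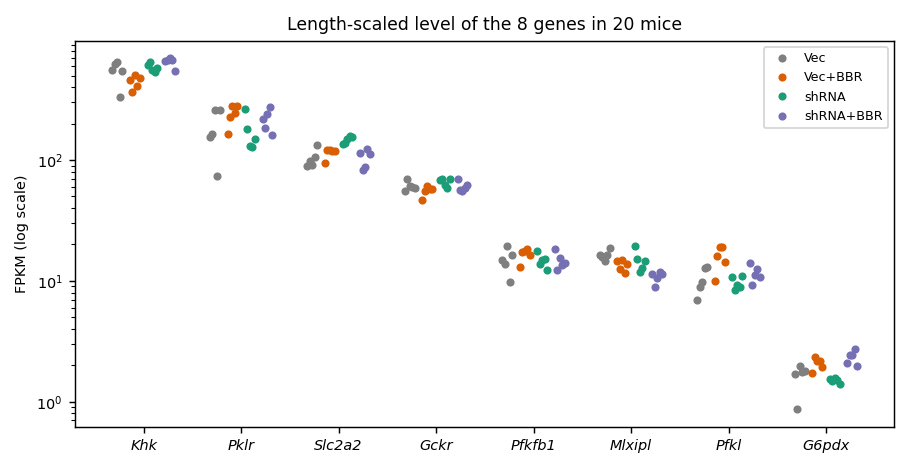
FPKM of the 8 genes in each of the 20 mice, on a log axis, ordered by the mean over all mice and coloured by group. Each point is 1 mouse. Khk lies between 331 and 695 FPKM and G6pdx between 0.867 and 2.75 FPKM, and Pfkfb1, Mlxipl and Pfkl overlap one another.

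Library totals lay between 17432904 and 25024099 counts. Vec replicates 2, 3 and 4 stood farthest from their group's median profile (root mean square log2 distance of 0.429 to 0.459, against 0.266 to 0.368 for the other libraries), so calls on the 8 genes that turn on these mice are also given without them. Pparg, the target of the shRNAs, was at 16.4 to 35.9 CPM (counts scaled to a common library size) in Vec mice, 28.0 to 38.3 in Vec+BBR mice, 3.24 to 7.31 in shRNA mice and 7.19 to 21.8 in shRNA+BBR mice. It was lower with the shRNA vector both without BBR (log2 fold change -2.12, SE 0.28, adjusted p = 4.47e-05) and under BBR (-1.20, SE 0.26, adjusted p = 0.00843), with no overlap between the groups in either case. In shRNA mice Pparg was higher with BBR (1.28, SE 0.28, adjusted p = 0.00773). The hepatocyte markers summed to 85552 to 141810 CPM over all mice. In bulk tissue, fewer cells of a type and less RNA per cell cannot be told apart.

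Which of the 8 genes differed was asked in 4 comparisons with edgeR's quasi-likelihood test, adjusted by Benjamini-Hochberg over all 12342 genes, with a threshold of 0.05. BBR against vehicle in Vec mice called 1 of the 8 genes, Pfkl, which was higher, beside 15.5% of all genes called (7.58% higher and 7.88% lower). No gene of the 8 was without overlap between Vec and Vec+BBR mice, and 8.94% of all genes were. BBR against vehicle in shRNA mice called 4 of the 8, with Pfkl and G6pdx higher and Mlxipl and Slc2a2 lower, beside 15.7% of all genes (8.37% higher and 7.28% lower). The groups did not overlap for 2 of them, Pfkl and G6pdx, beside 11.4% of all genes. Knockdown without BBR called 1 of the 8, Slc2a2, which was higher, beside 13.2% of all genes (5.28% higher and 7.91% lower), and none of the 8 was without overlap, beside 8.96%. Knockdown under BBR called 1 of the 8, Khk, which was higher and without overlap, beside 8.13% of all genes called (3.31% higher and 4.82% lower) and 8.48% without overlap. In Vec mice and in both knockdown comparisons the 12.5% of the 8 that 1 gene makes was near these shares. The comparisons share groups, since Vec mice serve in 2 of them and so does each other group. Each comparison's own values are therefore given side by side.

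**Figure D2:**
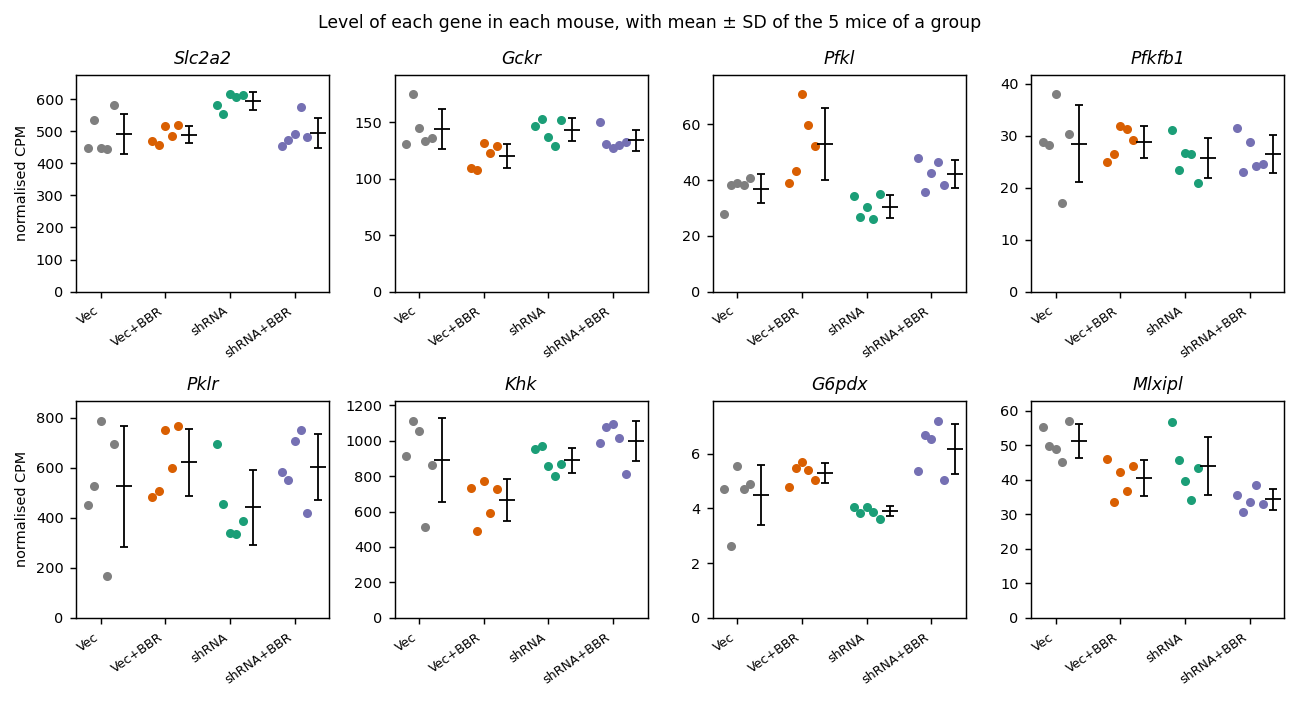
Normalised CPM of each gene in each mouse, 1 panel per gene and 1 column of points per group (5 mice each), with the group mean ± SD as a black bar beside the points. Vec+BBR mice lie below shRNA+BBR mice for Khk, and shRNA+BBR mice lie above shRNA mice for G6pdx and Pfkl.

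Slc2a2, the GLUT2 gene (ENSMUSG00000027690, chr3:28697903-28731359 in GENCODE M21 on GRCm38, plus strand), was highest on average in shRNA mice. In replicate order its level was 449, 534, 448, 444 and 581 CPM in Vec mice and 470, 457, 515, 484 and 518 CPM in Vec+BBR mice. It was 580, 552, 615, 607 and 614 CPM in shRNA mice and 454, 471, 491, 574 and 483 CPM in shRNA+BBR mice. Vec replicate 5 and shRNA+BBR replicate 4 reached into the range of the shRNA mice, and the other 4 Vec and 4 shRNA+BBR mice lay below it. Slc2a2 rose with knockdown without BBR (log2 fold change 0.27, SE 0.09, adjusted p = 0.0429) and fell with BBR in shRNA mice (-0.26, SE 0.09, adjusted p = 0.0459). With BBR in Vec mice the log2 fold change was -0.01 (95% interval -0.19 to 0.18), and with knockdown under BBR it was 0.02 (-0.17 to 0.20). On the FPKM scale shRNA mice lay at 136 to 158, above the 89.0 to 133 of Vec mice and the 82.5 to 123 of shRNA+BBR mice, and both differences were larger (0.51 and -0.51 on the log2(FPKM + 1) scale, adjusted p = 0.00737 and 0.0116 in limma). The CPM calls stood close to the threshold. The first was lost without Vec replicate 1, 3 or 4, Vec+BBR replicate 3, 4 or 5 or shRNA replicate 1, 3, 4 or 5 (adjusted p 0.0505 to 0.102; 0.0938 without Vec replicate 3 and 0.0708 without Vec replicate 4). The second was lost without Vec+BBR replicate 3, 4 or 5, any shRNA replicate, or shRNA+BBR replicate 1, 2, 3 or 5 (adjusted p 0.0522 to 0.0953).

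Gckr, which encodes a regulator of glucose use (ENSMUSG00000059434, chr5:31297443-31327314, plus strand), passed the threshold in no comparison. Its level was 131, 175, 145, 134 and 136 CPM in Vec mice, 110, 108, 132, 123 and 129 CPM in Vec+BBR mice, 147, 153, 137, 129 and 152 CPM in shRNA mice and 150, 131, 127, 130 and 133 CPM in shRNA+BBR mice. Vec+BBR mice reached into the range of Vec mice with 1 value. The log2 fold change with BBR in Vec mice was -0.26 (SE 0.09, adjusted p = 0.0504), and in shRNA mice it was -0.10 (95% interval -0.28 to 0.08). This gene was called with BBR in Vec mice in 11 of 27 alternatives, among them leaving out Vec replicate 1, 4 or 5, Vec+BBR replicate 3, shRNA replicate 3 or shRNA+BBR replicate 1, 2 or 3 (adjusted p 0.0421 to 0.0497; 0.0479 without Vec replicate 4). Without Vec replicate 2, its highest mouse, the value was -0.18 (adjusted p = 0.159), and on the log2(FPKM + 1) scale it was -0.13 (adjusted p = 0.312 in limma). Its log2 fold change with knockdown was -0.01 (95% interval -0.19 to 0.18) without BBR and 0.15 (-0.03 to 0.33) under BBR.

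Pfkl, the liver subunit of phosphofructokinase (ENSMUSG00000020277, chr10:77986947-78010083, minus strand), was higher with BBR under both vectors. Vec mice were at 27.7, 38.3, 38.9, 38.4 and 40.9 CPM, and Vec+BBR mice at 38.9, 43.4, 70.8, 59.6 and 52.1 CPM. The level was 34.2, 26.7, 30.5, 26.1 and 34.9 CPM in shRNA mice and 47.9, 35.8, 42.4, 46.4 and 38.3 CPM in shRNA+BBR mice. Only Vec+BBR replicate 1 fell within the range of Vec mice, and every shRNA+BBR mouse was above every shRNA mouse. The increase with BBR was 0.52 on the log2 scale in Vec mice (SE 0.14, adjusted p = 0.0174) and 0.47 in shRNA mice (SE 0.14, adjusted p = 0.0341). The difference between these effects was -0.06 (95% interval -0.48 to 0.37). With knockdown the log2 fold change was -0.33 under BBR (adjusted p = 0.159) and -0.27 without BBR (adjusted p = 0.220). On the FPKM scale shRNA mice (8.42 to 10.9) and shRNA+BBR mice (9.26 to 14.1) overlapped, and the second increase did not pass (0.23, adjusted p = 0.343 in limma). On the count scale, leaving out Vec replicate 1 (adjusted p = 0.0613), Vec+BBR replicate 3 (0.0612) or Vec+BBR replicate 4 (0.051) ended the call in Vec mice, while without Vec replicate 3 it was 0.0195. The call in shRNA mice was lost without shRNA replicate 2, 3 or 4 or shRNA+BBR replicate 1, 3 or 4 (adjusted p 0.0535 to 0.0818).

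Pfkfb1, the bifunctional enzyme that makes and removes fructose 2,6-bisphosphate, the activator of phosphofructokinase (ENSMUSG00000025271, chrX:150588229-150643878, plus strand), passed in no comparison. It ran from 17.1 to 38.0 CPM in Vec mice, 24.9 to 31.9 in Vec+BBR mice, 20.9 to 31.1 in shRNA mice and 23.0 to 31.6 in shRNA+BBR mice. All 4 ranges overlapped, and Vec replicates 3 and 4 set both ends of the Vec range. The log2 fold changes lay between -0.15 and 0.04, with 95% intervals that reached from -0.47 to 0.36 at the widest. Leaving out Vec replicate 3 gave 0.13 with BBR in Vec mice and -0.02 with knockdown without BBR. Leaving out Vec replicate 4 gave -0.13 and -0.28.

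Pklr, liver pyruvate kinase (ENSMUSG00000041237, chr3:89136142-89146784, plus strand), varied widely within groups, with an SD between 21.5% and 45.9% of the group mean. The level was 452, 528, 788, 166 and 696 CPM in Vec mice and 483, 506, 751, 598 and 768 CPM in Vec+BBR mice. It was 695, 456, 339, 335 and 386 CPM in shRNA mice and 583, 550, 705, 752 and 420 CPM in shRNA+BBR mice. Vec replicate 4 was far below the other mice, and the groups overlapped throughout. The log2 fold change with BBR was 0.24 in Vec mice (95% interval -0.36 to 0.84) and 0.44 in shRNA mice (-0.16 to 1.05), and with knockdown it was -0.25 without BBR (-0.85 to 0.35) and -0.05 under BBR (-0.65 to 0.56). None passed, and none did in the 27 alternatives. Without Vec replicate 4 the BBR value in Vec mice was 0.01 and the knockdown value without BBR -0.48. Without Vec replicate 3 these were 0.42 and -0.05. Pklr had a fractional count in 20 of 20 libraries, so it may share reads with another entry, while the other 7 genes had whole counts throughout.

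Khk, ketohexokinase (ENSMUSG00000029162, chr5:30921431-30931248, plus strand), was lowest on average in Vec+BBR mice. Its level was 913, 1113, 1056, 511 and 862 CPM in Vec mice and 732, 488, 774, 594 and 725 CPM in Vec+BBR mice. It was 953, 969, 858, 798 and 869 CPM in shRNA mice and 986, 1078, 1093, 1017 and 814 CPM in shRNA+BBR mice. All shRNA+BBR mice lay above all Vec+BBR mice, and among Vec mice only replicate 4 fell within the Vec+BBR range. Under BBR, Khk was higher with knockdown (log2 fold change 0.59, SE 0.16, adjusted p = 0.0272). Without BBR the knockdown value was 0.00 (95% interval -0.34 to 0.33). With BBR the log2 fold change was -0.43 in Vec mice (SE 0.16, adjusted p = 0.0756) and 0.17 in shRNA mice (SE 0.16, adjusted p = 0.490). The difference between the BBR effects was 0.59 (SE 0.23, 95% interval 0.12 to 1.06, unadjusted p = 0.0164) and did not pass after adjustment in edgeR (adjusted p = 0.183, and 0.0442 to 0.290 over the alternatives). The values against Vec mice moved with Vec replicate 4 and with the tool. DESeq2 over all mice called the BBR value in Vec mice (-0.43, adjusted p = 0.0471). Without Vec replicate 4 the knockdown value without BBR was -0.15 and still not called (adjusted p = 0.434 in edgeR). In edgeR without that mouse the BBR value in Vec mice was -0.57 (adjusted p = 0.00627) and the difference between the BBR effects was 0.74 (adjusted p = 0.0442). Without Vec replicate 3 these were -0.37 (adjusted p = 0.132) and 0.54 (adjusted p = 0.234). The knockdown call under BBR was lost without Vec+BBR replicate 2 (adjusted p = 0.0694) or 4 (0.0696) and without shRNA+BBR replicate 2 (0.0616) or 3 (0.0538).

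G6pdx, glucose-6-phosphate dehydrogenase (ENSMUSG00000031400, chrX:74409483-74429194, minus strand), had the lowest counts of the 8, at 41 to 161 per library. Vec mice were at 4.71, 2.64, 5.54, 4.72 and 4.90 CPM and Vec+BBR mice at 4.79, 5.46, 5.71, 5.4 and 5.04 CPM. The level was 4.07, 3.85, 4.07, 3.86 and 3.63 CPM in shRNA mice and 5.38, 6.67, 6.54, 7.21 and 5.04 CPM in shRNA+BBR mice. Every shRNA+BBR mouse was above every shRNA mouse. With BBR, G6pdx rose in shRNA mice by 0.66 on the log2 scale (SE 0.15, 1.58-fold, adjusted p = 0.00801), and this call held in 27 of 27 alternatives. The value in Vec mice was 0.22 (SE 0.15, adjusted p = 0.326), and 0.30 without Vec replicate 3. The difference between the BBR effects was 0.44 (95% interval 0.01 to 0.87, adjusted p = 0.261). With knockdown the log2 fold change was -0.22 without BBR (adjusted p = 0.356) and 0.23 under BBR (adjusted p = 0.351). Leaving out Vec replicate 2 gave -0.34 (adjusted p = 0.0629) for the first, and leaving out Vec replicate 3 gave -0.13. The BBR value in Vec mice was 0.09 once Vec replicate 2 was left out.

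Mlxipl, the ChREBP gene (ENSMUSG00000005373, chr5:135089890-135138382, plus strand), fell with BBR in shRNA mice. It was at 55.1, 49.7, 48.9, 45.0 and 57.1 CPM in Vec mice and 46.1, 33.5, 42.2, 36.7 and 44.0 CPM in Vec+BBR mice. The level was 56.8, 45.8, 39.7, 34.2 and 43.3 CPM in shRNA mice and 35.7, 30.6, 33.5, 38.6 and 33.0 CPM in shRNA+BBR mice. In each vector group most BBR mice lay below the vehicle mice, but 1 Vec+BBR mouse lay above the lowest Vec mouse and 2 shRNA+BBR mice above the lowest shRNA mouse. The log2 fold change with BBR was -0.36 in shRNA mice (SE 0.12, adjusted p = 0.0413) and -0.34 in Vec mice (SE 0.12, adjusted p = 0.0524). The difference between these effects was -0.02 (95% interval -0.36 to 0.32). With knockdown it was -0.22 without BBR (adjusted p = 0.217) and -0.24 under BBR (adjusted p = 0.202). The call in shRNA mice was lost without shRNA replicate 1, 2 or 5 or shRNA+BBR replicate 2, 3 or 5 (adjusted p 0.0565 to 0.124). The value in Vec mice passed without Vec replicate 3 (adjusted p = 0.0471) or 4 (0.0433), Vec+BBR replicate 1 (0.0304), shRNA replicate 1 (0.03) or 4 (0.039) or shRNA+BBR replicate 2 (0.0491). Over all mice it also passed in DESeq2 (adjusted p = 0.0363) and in edgeR with the replicate number as a block (0.035). Its partner Mlx was not called in any of the 4 comparisons, with log2 fold changes of -0.09 to 0.19.

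Whether BBR acted differently under the 2 vectors was tested as the difference of the BBR effects. None of the 8 genes passed in edgeR, DESeq2 or limma, beside 0.146% of all genes in edgeR (0.0729% higher and 0.0729% lower). At an unadjusted p under 0.05 there were 2, Khk and G6pdx. The median difference over the 8 genes was 0.09 on the log2 scale, against 0.01 over all genes.

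**Figure D3:**
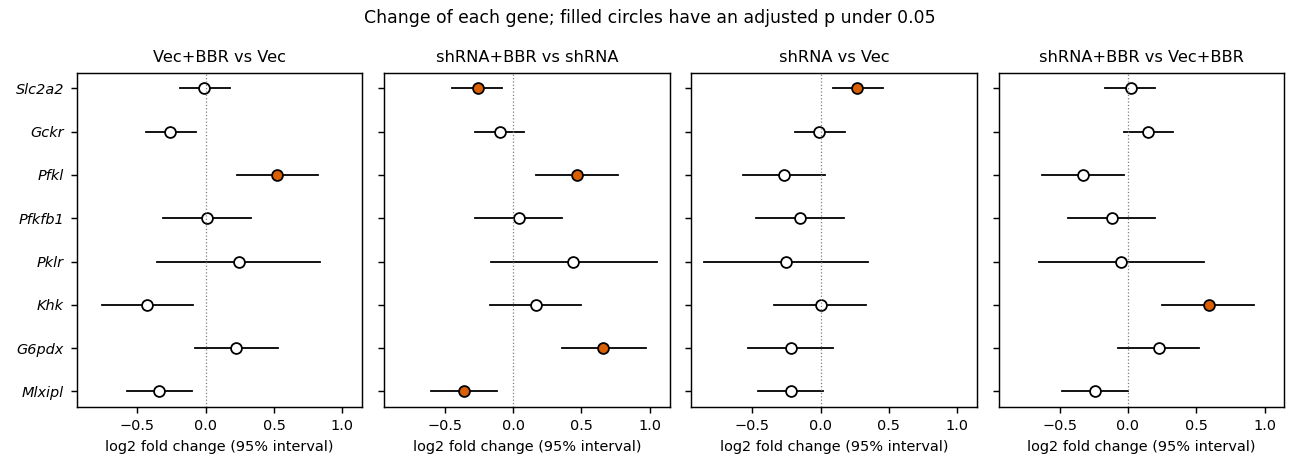
Log2 fold change of each gene with its 95% interval in the 4 comparisons, from edgeR. Filled circles passed an adjusted p of 0.05: Pfkl with BBR in Vec mice, Slc2a2, Pfkl, G6pdx and Mlxipl with BBR in shRNA mice, Slc2a2 with knockdown without BBR and Khk with knockdown under BBR.

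Around these 8 genes, 5 lists of the connected pathways were counted. The shares of all genes called stand beside these counts and those of the cell markers below. With BBR they were 7.58% higher and 7.88% lower in Vec mice, and 8.37% higher and 7.28% lower in shRNA mice. With knockdown they were 5.28% higher and 7.91% lower without BBR, and 3.31% higher and 4.82% lower under BBR. Among the other glycolytic enzymes, 19 entries were tested. With BBR in Vec mice 3 rose and 1 fell (median log2 fold change 0.10, against -0.01 over all genes). Hk2, a hexokinase scarce in healthy liver, was at 0.848 to 2.40 CPM in Vec mice and 4.32 to 7.41 CPM in Vec+BBR mice, and rose by 2.28 (SE 0.28, adjusted p = 5.69e-05). Aldoa (0.53, adjusted p = 0.00763) and Pkm, pyruvate kinase of other tissues (0.44, adjusted p = 0.0474), also rose, and Pfkm, the muscle subunit of phosphofructokinase, fell (-0.37, adjusted p = 0.013). The call on Pkm was lost in 16 of 27 alternatives (adjusted p up to 0.138), among them without Vec replicate 1, 2, 4 or 5 or Vec+BBR replicate 2, 3, 4 or 5. In shRNA mice BBR raised 10 of the 19 and lowered 1, with a median of 0.47, against 0.01 over all genes. The 10 were Hk2 (1.55), Hk3 (0.89), Eno3 (0.68), Hk1 (0.68), Pkm (0.62), Gpi1 (0.61), Aldoa (0.52), Gapdh (0.47), Eno1 (0.43) and Ldha (0.36), all as log2 fold changes, and Pfkm fell by 0.38. Of these, Hk2 and Pkm kept the call in all 27 alternatives, while Hk3 lost it in 9, Hk1 in 7, and Eno3 and Gpi1 in 6 each. For Aldoa, Gapdh, Eno1 and Ldha no such count is given. Of the 19, edgeR called 11 in this comparison, DESeq2 13 and limma on FPKM 9. Over the 5 lists together edgeR called 15 genes here, and 7 without shRNA+BBR replicate 3.

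Knockdown without BBR lowered 5 of the 19 glycolytic entries (Tpi1, Hk3, Pkm, Eno3 and Ldha) and raised none, beside 7.91% of all genes lower. The median was -0.29, against -0.01 over all genes. Without Vec replicate 3, 4 of the 19 were called lower and the median was -0.14. Eno3, the muscle enolase, was at 1.00 to 1.32 CPM in Vec mice and 0.564 to 0.958 CPM in shRNA mice (log2 fold change -0.74, SE 0.20, adjusted p = 0.0177). Knockdown under BBR lowered 1 of the 19, Hk2, which was at 2.05 to 3.79 CPM in shRNA+BBR mice (-1.09, SE 0.25, adjusted p = 0.0124). The increases of Hk2 with BBR held in every alternative, while Hk3 with knockdown without BBR was lost in 14 of 27 alternatives, among them without Vec replicate 3 (adjusted p = 0.105) and without Vec replicate 4. Limma on FPKM called 2 of the 19 in that comparison. Markers of skeletal muscle, a tissue that expresses Pfkm and Eno3, were near 0, with a summed level of 0.391 to 1.55 CPM in 19 mice. In Vec+BBR replicate 3 the sum was 9.89 CPM. That mouse also had the highest Pfkl (70.8 CPM), and without it the calls on Pfkl and Pkm with BBR in Vec mice were lost. Whether muscle RNA had a part in this was not tested. Ckm, the muscle creatine kinase gene, had no count in any Vec, shRNA or shRNA+BBR mouse.

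Beside 7.88% of all genes called lower, 3 of the 8 other fructose and polyol genes fell with BBR in Vec mice and none rose. They were Sord, sorbitol dehydrogenase (-0.34, adjusted p = 0.0141), Akr1b3, aldose reductase (-0.54, adjusted p = 0.00975), and Slc2a5, the fructose transporter GLUT5 (-0.84, adjusted p = 0.042). Limma on FPKM called none of the 8 there, against 3 by DESeq2 and 4 at an unadjusted p under 0.05 in edgeR. Slc2a5 also lost the call without Vec replicate 1, 2 or 4 or Vec+BBR replicate 2, 4 or 5 (adjusted p up to 0.133). Knockdown under BBR raised 1, Akr1b3, which was at 7.99 to 10.2 CPM in Vec+BBR mice and 11.6 to 15 CPM in shRNA+BBR mice (0.53, SE 0.13, adjusted p = 0.0188). This is the comparison in which Khk rose. Glyctk, glycerate kinase, rose with knockdown without BBR (0.36, adjusted p = 0.0233; 0.0565 without Vec replicate 3, where Sord passed as lower, adjusted p = 0.0443) and fell with BBR in shRNA mice (-0.47, adjusted p = 0.00778). Tkfc, the triokinase of fructose breakdown, passed in no comparison, and its largest log2 fold change was 0.25 with knockdown under BBR (adjusted p = 0.403).

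The pentose phosphate list held 7 genes. BBR raised 2 in Vec mice, Taldo1, transaldolase (0.44, adjusted p = 0.0366), and Rpe (0.34, adjusted p = 0.0244), with a median of 0.34. In shRNA mice it raised 2, Taldo1 (0.63, adjusted p = 0.008) and Rpia (0.72, adjusted p = 0.0309), with a median of 0.51. Taldo1 was at 90.6 to 108 CPM in shRNA mice and 127 to 176 CPM in shRNA+BBR mice, without overlap, as for G6pdx. Without Vec replicate 3, 4 of the 7 rose in each of these comparisons. In Vec mice Taldo1 lost the call in 8 of 27 alternatives, among them without Vec replicate 1, 2, 4 or 5 (adjusted p up to 0.102), and Rpe in 5, among them without Vec replicate 1 or 2 (up to 0.0675). Rpia lost it in shRNA mice in 7 of 27. H6pd, the glucose-6-phosphate dehydrogenase of the endoplasmic reticulum, was lower with knockdown both without BBR (-0.50, SE 0.09, adjusted p = 0.00123) and under BBR (-0.45, SE 0.09, adjusted p = 0.00543). Taldo1 was also lower with knockdown without BBR (-0.51, adjusted p = 0.0184; 0.0637 without Vec replicate 3).

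Beside 7.88% lower and 7.58% higher over all genes, BBR in Vec mice lowered 3 of 21 ChREBP partners and target genes and raised none. These were Slc37a4, the transporter that carries glucose 6-phosphate to the phosphatase (-0.49, SE 0.10, adjusted p = 0.00302), Tm6sf2 (-0.68, SE 0.12, adjusted p = 0.000951) and G6pc, glucose-6-phosphatase (-0.77, SE 0.22, adjusted p = 0.0234). G6pc was at 516 to 808 CPM in Vec mice and 262 to 507 CPM in Vec+BBR mice, without overlap. The list as a whole did not lean this way, as its median was 0.20 and 12 of 21 values were positive. Without Vec replicate 3, 3 of the 21 rose and 3 fell. G6pc lost the call without Vec replicate 2 or Vec+BBR replicate 2 (adjusted p up to 0.0662). BBR lowered Slc37a4 in shRNA mice as well (-0.41, SE 0.10, adjusted p = 0.0139). Knockdown under BBR raised Tm6sf2 (0.57, SE 0.12, adjusted p = 0.00549), and knockdown without BBR called none of the 21 in edgeR, DESeq2 or limma, with 1 at an unadjusted p under 0.05. Txnip, a sensitive ChREBP target, was not called in edgeR over all mice, with its log2 fold changes between -0.54 (knockdown under BBR, adjusted p = 0.0778) and 0.32. It passed with knockdown under BBR in DESeq2 and without shRNA+BBR replicate 1 (lowest adjusted p = 0.0239). Thrsp ran from 454 to 2367 CPM among Vec mice alone and was not called either.

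Of 14 genes for the entry and oxidation of pyruvate, the product of Pklr, BBR in Vec mice raised 1, Pdha1 of the pyruvate dehydrogenase complex. This count was near the 7.58% of all genes called higher. Pdha1 was at 125 to 160 CPM in Vec mice and 181 to 201 CPM in Vec+BBR mice (0.41, SE 0.07, adjusted p = 0.00114). In that comparison 3 of the 14 rose and 2 fell without Vec replicate 3. DESeq2 called 3 over all mice and limma on FPKM 5, and 7 had an unadjusted p under 0.05 in edgeR. Pdk2, a kinase that inactivates that complex, was lower with knockdown without BBR (-0.72, SE 0.10, adjusted p = 9.95e-05) and under BBR (-0.41, SE 0.10, adjusted p = 0.0178). No gene of this list was called with BBR in shRNA mice in edgeR, with 5 at an unadjusted p under 0.05, 2 called by DESeq2 and 0 by limma on FPKM. Pdha1 was at 0.21 there (adjusted p = 0.0544), and without Vec replicate 3 there were 4 calls.

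**Figure D4:**
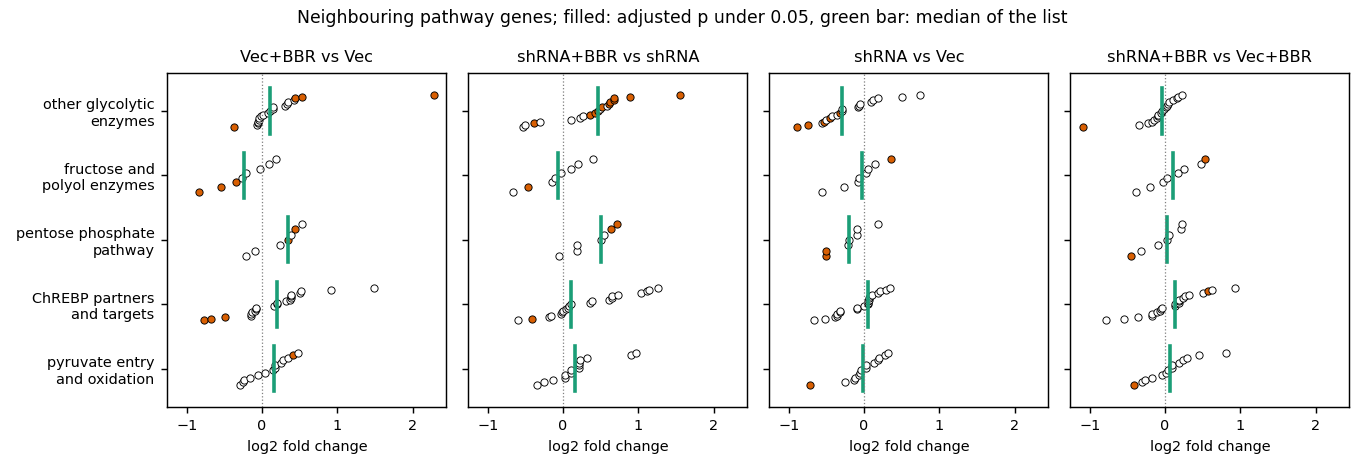
Log2 fold changes of the genes in the 5 pathway lists in the 4 comparisons, 1 point per gene, with the list median as a green bar. Filled points passed an adjusted p of 0.05. The glycolytic list has 10 filled points above 0 with BBR in shRNA mice and 5 below 0 with knockdown without BBR.

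Some cell markers were called in edgeR in each of the 4 comparisons except knockdown under BBR. With BBR in Vec mice, where Pfkl rose, 2 of 6 hepatocyte markers were lower (Cps1 and Fgb, summed list 112368 to 141810 CPM in Vec and 85552 to 120490 CPM in Vec+BBR mice). Cd68 was higher there, but it was the only 1 of 6 macrophage markers with a positive log2 fold change (list median -0.04). Of the stellate markers 1 of 5, Col1a1, was higher, as were 2 of 5 endothelial markers. With knockdown without BBR, where Slc2a2 rose, 3 of 5 endothelial markers were higher (summed 62.6 to 83.0 CPM in Vec and 94.6 to 121 CPM in shRNA mice). Cd68, 1 of 6 macrophage markers, and Col1a1, 1 of 5 stellate markers, were lower. With Vec replicate 3 left out, 2 endothelial markers were called there and neither Cd68 nor Col1a1 was. With BBR in shRNA mice 1 of 6 hepatocyte markers, Cps1, was lower, while 3 of the 6 had a positive log2 fold change (list median 0.05). Cd68, 1 of 6 macrophage markers, was higher, as were Col1a1 and Lrat, 2 of 5 stellate markers. Of the 5 endothelial markers 1, Lyve1, was higher and 2, Stab2 and Kdr, were lower. Summed macrophage markers lay between 117 and 293 CPM and stellate markers between 129 and 280 CPM over all mice. With knockdown under BBR, where Khk rose, no marker was called in edgeR. Of the 6 hepatocyte markers 2 had an unadjusted p under 0.05 there, 1 was called by DESeq2, and 2 were called as higher without Vec replicate 3. Cholangiocyte markers summed to 2.23 to 5.2 CPM and erythroid markers to 282 to 1583 CPM. None of them was called in edgeR, but with knockdown without BBR 2 of 4 cholangiocyte and 3 of 4 erythroid markers had an unadjusted p under 0.05, and DESeq2 called 1 and 2 of them. The part of these cells in the changes of the 8 genes was not tested.

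How far the other 7 genes followed Mlxipl from mouse to mouse was asked after subtracting the group means of log2 CPM, over 20 mice and 7 relations, with 100000 permutations within groups (two-sided). Pklr gave r = 0.55 (permutation p = 0.00663, adjusted p = 0.0435) and rho = 0.55 (permutation p = 0.0182, adjusted p = 0.127). Khk gave r = 0.49 (permutation p = 0.0124, adjusted p = 0.0435) and rho = 0.49 (permutation p = 0.0401, adjusted p = 0.141). The other 5 genes had r between 0.03 and 0.26, and none passed. Without the 2 mice farthest from the median of Mlxipl, shRNA replicates 1 and 4, r was 0.46 for Pklr and 0.53 for Khk. Vec replicate 4, low in all 3 genes, lay at the low end of both relations, and without that mouse r was 0.56 for Pklr and 0.45 for Khk, and neither passed (permutation, adjusted p = 0.210 for both). Without Vec replicate 3, r was 0.64 for Pklr (permutation, adjusted p = 0.0153) and 0.54 for Khk (0.0276). On the FPKM scale r was 0.36 for Pklr and 0.13 for Khk, and neither passed. The rank correlations passed without Vec replicate 3 (rho = 0.64, permutation, adjusted p = 0.04 for Pklr, and rho = 0.59, 0.0478 for Khk) but not over the 20 mice. The calls thus depended on the unit and on single mice.

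**Figure D5:**
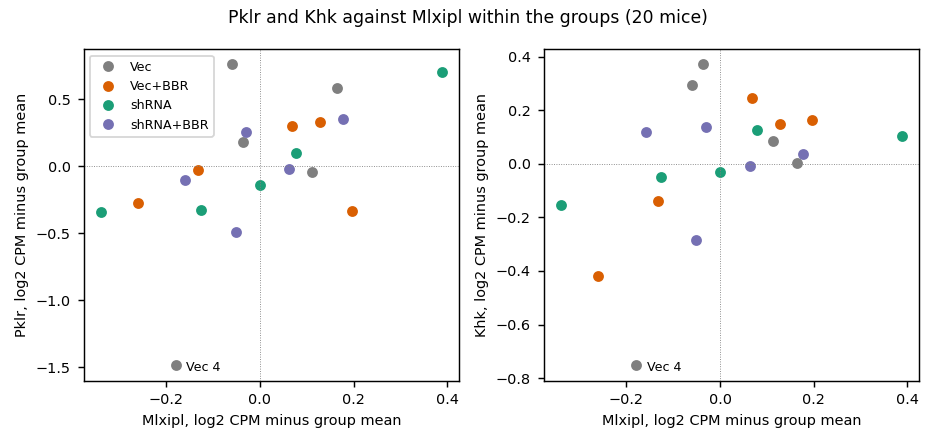
Log2 CPM of Pklr (left) and Khk (right) against that of Mlxipl, each minus the mean of its group, with 1 point per mouse coloured by group. Vec replicate 4, marked Vec 4, lies lowest in both panels, and Pearson's r over the 20 mice is 0.55 for Pklr and 0.49 for Khk.

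Genes whose pattern over the 20 mice was most like that of each of the 8 were sought among 9787 genes with a mean count of at least 50, by Pearson's r of log2 CPM, as a description. Gckr was nearest to Btd (0.873) and Got2 (0.836), Pklr to Me1 (0.892) and Tkt (0.883), and Khk to Mrps10 (0.917) and Rpp25l (0.884). Pfkl was nearest to Pcx (0.879) and Npc2 (0.864), and G6pdx to Plekho1 (0.897) and Arpc1b (0.893). For Mlxipl the nearest were Hsd3b3 (0.870) and Srebf1 (0.846), and for Slc2a2 they were Adamts7 and Gucd1 (0.803 each). Pfkfb1 had the weakest neighbours, Hao1 (0.734) and Acsl5 (0.722). After the group means were removed, Me1, malic enzyme, and Tkt, transketolase of the pentose phosphate pathway, stood at 0.914 and 0.878 with Pklr. The other pairs then lay between 0.518 (Adamts7 with Slc2a2) and 0.88 (Arpc1b with G6pdx). Among them were 0.868 for Mrps10 with Khk, 0.645 for Srebf1 with Mlxipl and 0.585 for Npc2 with Pfkl. All values share the same 20 libraries and their scaling.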

How the data were processed

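Liver poly(A) RNA of 20 mice was sequenced (4 groups of 5, grouped by the treatment in the labels, 1 library per mouse). The design text calls the 5 samples of a group biological replicates. Per the file headers, each deposited file pairs every gene with 2 values from the authors, an expected count and an FPKM. The deposited expected counts were not normalized and hold some fractions, as estimated counts do. The deposited FPKM values were scaled by the authors for length and library size. The submitters' processing notes name the build mm10, and the aligner and counting program are not given in the sources used here.

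Counts were rounded to whole numbers and filtered with filterByExpr (minimum count 10, minimum total 15), which kept 12342 genes. Normalisation was by TMM (factors 0.873 to 1.14), and a 4-group quasi-likelihood fit was made in edgeR 4.0.16 (R 4.3.3) with Benjamini-Hochberg adjustment over all genes and a threshold of 0.05. Standard errors were derived from the F statistic. FPKM values were tested with limma 3.58.1 on log2(FPKM + 1), and DESeq2 1.42.0 was an alternative. Correlations used log2 CPM with a prior count of 2. The fit was tested on simulated data. Library totals were 17432904 to 25024099 counts, and counts of the 8 genes per library ran from 41 (G6pdx) to 26025 (Khk). No pair of libraries within a group was a duplicate (40 pairs). The replicate numbers were not taken to pair mice.

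The 8 genes, the lists and the tests were chosen with earlier results of these data known. Named are the 8 genes, at most 6 called genes per pathway list with the largest changes, and Tkfc, Txnip, Thrsp and Pparg. Some genes that the rule names are not reported here. Mlx and the other called list genes and markers were named after their values were seen. For each of the 8 genes, the 2 genes of highest likeness were named.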

Additional observations from a re-analysis of the deposited data

Results flagged for a closer look

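Within the groups of 5 mice, 1 value stood apart from the other 4 in 3 of 32 cases, where chance alone flags about 1 in 20 groups. Gckr was at 150 CPM in shRNA+BBR replicate 1 and at 127 to 133 CPM in the other shRNA+BBR mice. Pfkl was at 27.7 CPM in Vec replicate 1 and at 38.3 to 40.9 CPM in the other Vec mice, and without that mouse its increase with BBR was 0.43 on the log2 scale (adjusted p = 0.0613 in edgeR). G6pdx was at 2.64 CPM in Vec replicate 2 and at 4.71 to 5.54 CPM in the other Vec mice, and without that mouse its log2 fold change with BBR in Vec mice was 0.09 (adjusted p = 0.694 in edgeR).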

How the results depend on the processing

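Over 27 alternatives, the 8 genes gave 1072 values for 40 results, of which 1000 stayed on their side of the threshold, 50 lost a call and 22 gained one, and no called value changed sign. The cause of these changes was not tested. For BBR in Vec mice the number of the 8 genes called was 2 with RLE size factors, 4 with DESeq2, 2 with at least 10 counts in every library, 2 with the replicate block and 0 when only the groups compared were fitted, where 1178 genes in all were called. For knockdown without BBR it was 0 with no filter, with only the groups compared and with the replicate block. The pathway list genes called were 8 for knockdown under BBR with DESeq2 and 24 for BBR in shRNA mice with only the groups compared. For the difference of the BBR effects, 338 genes were called with DESeq2 and 28 with limma on FPKM, and 1 list gene with DESeq2. With FPKM the correlations with Mlxipl were 0.36 for Pklr, 0.13 for Khk and -0.09 for G6pdx, where that of G6pdx turned from 0.03.

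Leaving out 1 library at a time, all genes, the 8 genes and list genes called ranged from 1237 to 2395, 0 to 4 and 8 to 22 for BBR in Vec mice. The ranges were 538 to 1217, 0 to 1 and 3 to 7 for knockdown under BBR, 1015 to 2284, 0 to 1 and 6 to 13 for knockdown without BBR, 661 to 2527, 1 to 4 and 7 to 23 for BBR in shRNA mice, and 5 to 122, 0 to 1 and 0 to 1 for the difference. The list counts with BBR were 8 without Vec replicate 2 and 22 without Vec replicate 3 in Vec mice, and 23 without Vec replicate 3, 9 without shRNA+BBR replicate 2 and 7 without shRNA+BBR replicate 3 in shRNA mice. The correlations with Mlxipl without Vec replicate 3 or 4 were 0.56 to 0.64 for Pklr and 0.45 to 0.54 for Khk. Leaving out Vec replicate 4 there was chosen after seeing the data.

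Same-numbered mice deviated together (correlation over 0.1) for 3 of the 5 numbers when shRNA was set against shRNA+BBR, and for at most 1 of 5 in any other pair of groups, so the numbers were not used as pairs. With the replicate block, 1747, 940, 1495, 1819 and 21 genes were called for BBR in Vec mice, knockdown under BBR, knockdown without BBR, BBR in shRNA mice and the difference. Under the block Mlxipl was called in Vec mice (adjusted p = 0.035), and the Slc2a2 calls were lost (0.0519 without BBR and 0.0545 in shRNA mice). At 41 to 161 counts per library, G6pdx carries the largest counting error of the 8 genes.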
